A study of Mus musculus domesticus and Mus musculus domesticus x Mus musculus castaneus and Mus musculus castaneus with 10 samples.

Results

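The genes for the proteins of the mitochondrial ribosome were examined in homozygous stem cells of the mouse strain CAST/EiJ (hereafter CAST), which belongs to Mus musculus castaneus. A gene was a member if it was annotated as protein-coding and its symbol was Mrpl or Mrps followed by a number. The count table held 77 such genes among 26808 genes, of 78 in the annotation. The rule itself uses no measured value. The remaining gene, Mrpl42, was not analysed here. The series asks how stem cells of CAST, the laboratory strain 129 and their hybrid differ in expression, and lists 2 CAST, 4 129 and 4 hybrid libraries. The 129 and hybrid libraries were not analysed here, so no comparison between strains is made.

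The CAST stem cells were induced pluripotent cells. They came from fibroblasts of E13.5 embryos into which retroviral vectors had carried Oct4, Sox2 and Klf4, and both libraries share this history. The cells were grown on irradiated mouse fibroblasts, which were depleted before RNA was taken, and polyadenylated RNA was sequenced. The labels do not say whether the libraries, replicate 1 and replicate 2, came from separate animals or lines. They carry different batch entries, so batch and replicate cannot be told apart. With 1 group of 2 libraries, no test between conditions was possible, and every difference between the libraries is a description. The table counted 14460393 reads in replicate 1 and 13728098 in replicate 2. Of 11 fixed markers of pluripotent cells, 9 had rows, and their summed level was 5137 CPM (read counts scaled to a library total of 1000000) in replicate 1 and 4143 in replicate 2. The 11 fixed fibroblast markers summed to 5574 and 3276 CPM, so RNA with fibroblast markers was present in both libraries, with the larger sum in replicate 1. Fn1, with 2401 and 2002 CPM, and Col1a1, with 1726 and 777, gave most of the sum. Pdgfrb had 6.15 and 6.63 CPM, Dcn 3.25 and 3.21, and Lum 2.07 and 1.31. Of 8 neuron markers, Chat and Syt1 were at 0 in both libraries, and Snap25 had 0.484 and 0.146 CPM. The other 5, with at least 10 counts in total, summed to 91.1 and 49.5 CPM, and Tubb3 gave most of the sum, with 81.2 and 44.2 CPM. Of 7 germ layer markers, the 6 with at least 10 counts in total summed to 18.7 and 38.7 CPM.

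Mitochondria translate the few messenger RNAs of their own genome, all of which encode subunits of the respiratory chain or ATP synthase. The ribosome that does so has a large subunit, where peptide bonds are made, and a small subunit, where the message is decoded. Its RNA comes from the mitochondrial genome, whereas all of its proteins are encoded in the nucleus, made by cytosolic ribosomes and imported. Many of these proteins descend from the bacterial ancestor, and others were added during the evolution of mitochondria. A mature ribosome holds nearly all of them as single copies.

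By the subunit in which the protein sits, 50 members belonged to the large subunit and 26 to the small subunit. Of the large subunit genes, 30 encode counterparts of bacterial proteins and 20 encode proteins specific to mitochondria, and for the small subunit these numbers were 16 and 10. The remaining member, Mrps36, encodes an adaptor of the alpha-ketoglutarate dehydrogenase complex, and it is no longer counted as ribosomal by every account. Mrps30 and Mrps18a carry the letter of the small subunit, and yet their proteins sit in the large subunit. The members lay on 17 chromosomes of the GRCm38 annotation, with 11 on chromosome 11 and 8 on chromosome 17.

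The Mrps18 genes are paralogs, and their sequences bear on whether reads can be assigned to 1 of them. The protein of Mrps18c takes the place of bacterial S18, that of Mrps18b holds a place of its own in the small subunit, and that of Mrps18a lies in the large subunit. Mrps18a is on chromosome 17 from 46110986 to 46128910 on the plus strand, Mrps18b on chromosome 17 from 35910379 to 35916389 on the minus strand, and Mrps18c on chromosome 5 from 100798627 to 100804471 on the plus strand (GRCm38). The 60 bases shown are the stretch of the coding sequences, aligned without gaps, in which most bases were alike in all 3 genes. Capitals mark the 20 bases that all 3 share. The stretch starts at base 233 of the 588 coding bases of Mrps18a, base 329 of the 762 of Mrps18b and base 209 of the 429 of Mrps18c, in the GENCODE M21 transcripts, which carry the reference strain's alleles and not those of CAST.
Mrps18a: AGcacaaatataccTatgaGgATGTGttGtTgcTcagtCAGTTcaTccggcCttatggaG
Mrps18b: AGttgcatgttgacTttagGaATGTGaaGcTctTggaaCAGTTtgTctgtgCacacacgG
Mrps18c: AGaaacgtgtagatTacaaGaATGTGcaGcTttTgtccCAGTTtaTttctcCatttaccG
Even in this stretch the longest run of capitals is short. Over the whole aligned coding sequences, identity was 62.5% between Mrps18a and Mrps18b, 65.6% between Mrps18a and Mrps18c and 67.7% between Mrps18b and Mrps18c. The longest identical run between any pair was 10 bases, so reads of these 3 genes can be told from each other, though not always from those of other genes.

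The 3 paralogs were at different levels. Levels are compared between genes as CPM per kb of the union of annotated exons. Mrps18b stood at 23.3 in replicate 1 and 26.3 in replicate 2, Mrps18a at 12.1 and 11.1, and Mrps18c at 7.91 and 7.92. The order was therefore Mrps18b, Mrps18a and Mrps18c in each library, with no overlap between genes. Per kb of coding sequence, Mrps18a stood at 75.6 and 69.9, Mrps18b at 63.8 and 72.2, and Mrps18c at 19.8 and 19.9. On that scale Mrps18a and Mrps18b overlapped, and Mrps18c remained the lowest. An antisense gene, Gm16279, covers 30.5% of the exon bases of Mrps18b, and how much it adds to the count was not tested. Of the 75-base stretches of Mrps18b, 12.1% also occur in transcripts of genes elsewhere, the processed pseudogene Gm13552 among them, as do 3.71% of those of Mrps18c, against none of Mrps18a. The part of these stretches in the order of levels was not tested.

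Other members share sequence with a second gene. Mrpl53, a large subunit protein specific to mitochondria, lies on chromosome 6 from 83109040 to 83109939 on the plus strand, and 88.0% of its exon bases also belong to Gm42688 on the same strand. All 354 coding bases of Mrpl53 occur in a transcript of Gm42688 that is annotated for nonsense-mediated decay. Mrpl22, whose protein lines the exit tunnel, lies on chromosome 11 from 58171661 to 58179565 on the plus strand. Its coding sequence matches the processed pseudogene Gm6997, on chromosome 14, over an unbroken 224 of 618 bases. The first 75 bases of each shared stretch are given, from coding base 1 of Mrpl53 and coding base 307 of Mrpl22, with no base in capitals since all are alike in both genes.
Mrpl53: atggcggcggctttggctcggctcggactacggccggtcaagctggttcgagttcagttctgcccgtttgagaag
Mrpl22: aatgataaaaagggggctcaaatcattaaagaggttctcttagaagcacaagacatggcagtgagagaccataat
Of all 75-base stretches in the transcripts of Mrpl22, 17.3% also occur in transcripts of genes elsewhere. In all, 28 of the 77 members had at least 1 such stretch, and in 9 of them more than 5% of the stretches were shared. Where reads that match several places are discarded, such genes lose counts.

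Mrpl53 had 0 counts in both libraries. At these depths, a count of 0 allows a level of up to 0.207 CPM in replicate 1 and 0.219 in replicate 2, taking 3 counts as the limit and counting error alone. Gm42688, with which it shares its coding bases, had 3 and 2 counts. Mrpl41, a large subunit protein specific to mitochondria, was the next lowest with 20 and 14 counts. It lies on chromosome 2 from 24974117 to 24975098 on the minus strand, shares no exon base with another gene, and matches the pseudogene Gm6434 over 89 unbroken coding bases. Both values are listed as the table gives them. They do not show that the genes were silent, because genes needed in every cell were also near 0 in this table. Fau, which encodes a cytosolic ribosomal protein, had 2 and 6 counts, and Tufm, the elongation factor that brings aminoacyl-tRNA to the mitochondrial ribosome, had 4 and 0. The other 75 members had at least 100 counts in each library.

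Together, the members took 0.474% of the counts of replicate 1 and 0.507% of those of replicate 2, that is 4735 and 5071 CPM. The large subunit genes summed to 3189 and 3386 CPM and the small subunit genes to 1491 and 1637 CPM. The sum was spread widely, since the 10 members with the highest CPM held 30.1% of it. In mean CPM, which is not corrected for length, the highest were Mrpl15, with 209 and 201, and Mrpl17, with 183 and 195. Mrpl45, with 153 and 200.5, was above Mrpl17 in replicate 2.

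The levels per kb of exon are plotted for each member. Over the 76 members with at least 10 counts in total, the median was 24.0 CPM per kb, and the middle of the distribution ran from 12.7 to 39.2 (quartiles). Of these, 48 lay within 2-fold of the median. The SD over members of the log2 level was 1.12, with 0.5 CPM per kb added before the logarithm. Between libraries, log2 levels were correlated over the 76 members (Pearson r = 0.986, as a description; both libraries share gene lengths and annotation). In the ordered list, 64 of 75 neighbouring pairs overlapped in the ranges of their libraries, so the exact rank of most members is not resolved.

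**Figure D1:**
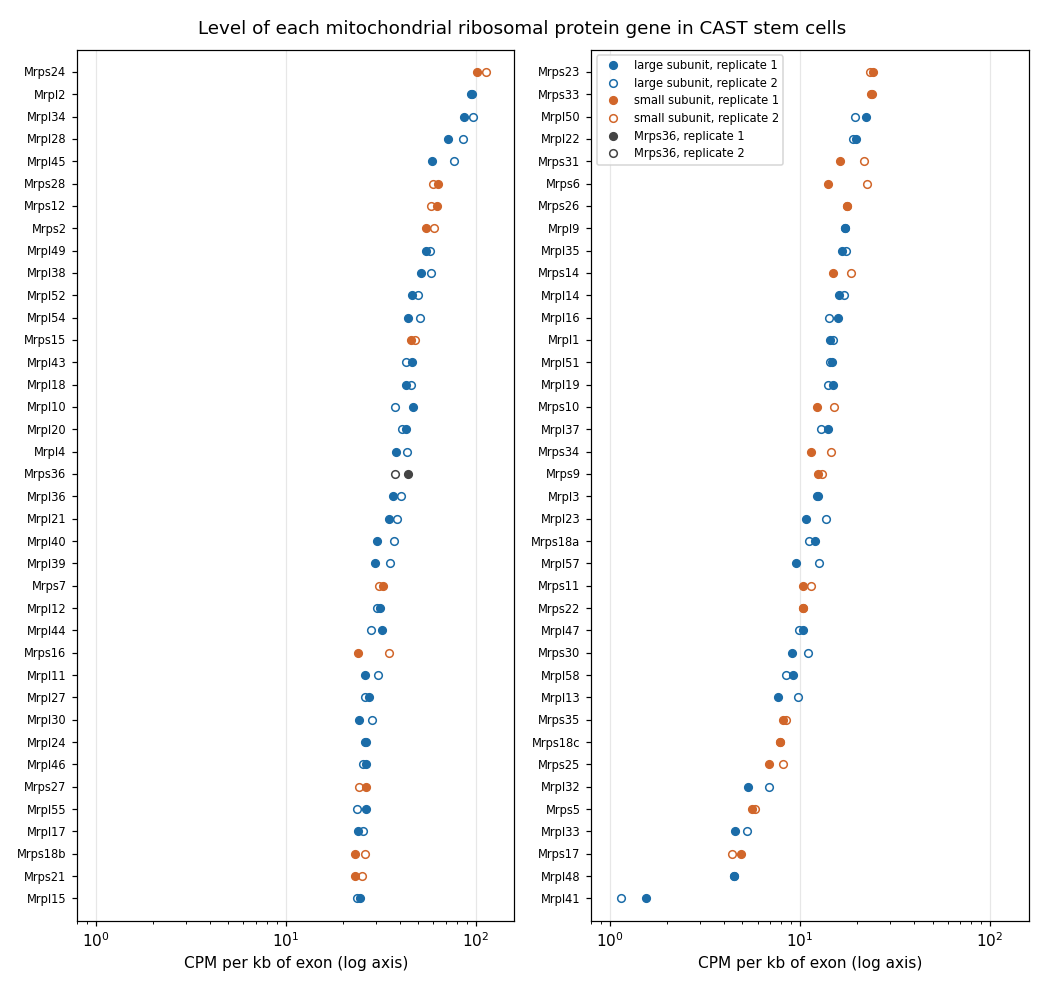
CPM per kb of exon (log axis) in replicate 1 (filled) and replicate 2 (open) for the 76 members past the filter, ordered by mean level from the top of the left panel to the foot of the right panel. Blue marks the large subunit, orange the small subunit and grey Mrps36; Mrps24 is at the top with 102 and 113, and Mrpl41 lies apart at the foot with 1.56 and 1.15.

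The highest member per kb of exon was Mrps24, the counterpart of the bacterial protein at the entrance for messenger RNA, on chromosome 11 from 5703983 to 5715680 on the minus strand. It stood at 102 CPM per kb in replicate 1 and 113 in replicate 2, and 15.4% of its exon bases are shared with Urgcp on the same strand. Another protein of the message path, Mrps12 of the decoding centre, stood at 63.0 and 58.0. Mrps28, the counterpart of bacterial S1, was close to it at 63.1 and 59.9. Mrps2, which lies between head and body, stood at 54.6 and 60.2. These last 3 small subunit genes overlapped in level, whereas Mrps24 was above them in each library. In contrast, Mrps5, also a protein of the body near the messenger RNA, was among the lowest, at 5.62 and 5.79.

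Of the large subunit, the highest was Mrpl2, a core protein close to the peptidyl transferase centre, at 94.6 and 95.4 CPM per kb. Mrpl34, a small protein with a bacterial counterpart, stood at 86.8 and 96.6, and Mrpl28 at 71.7 and 85.5. The ranges of Mrpl2 and Mrpl34 overlapped. Mrpl45, which holds the ribosome at the inner membrane beside the exit tunnel, stood at 59.1 and 77.2. Mrpl49 stood at 54.8 and 57.7, and Mrpl38 of the central protuberance at 51.8 and 58.6. In all, the top 10 held 6 genes of the large and 4 of the small subunit.

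The low end per kb of exon held proteins of several places in the ribosome. Besides Mrpl53, Mrpl41, Mrps5 and Mrps18c, these were Mrpl48 of the central protuberance with 4.52 and 4.54, and Mrps17 of the body of the small subunit with 4.89 and 4.42. Mrpl33, a small protein of the large subunit, stood at 4.57 and 5.27. Mrpl32, a zinc-binding protein that is matured by the m-AAA protease, stood at 5.33 and 6.86. Mrps25 stood at 6.92 and 8.14, and Mrps35 at 8.17 and 8.43. The library range of Mrps17 overlapped those of Mrpl48 and Mrpl33.

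The low ranks rested in part on the length used. Over members, exon union length and CPM per kb had a Spearman rho of -0.62 (76 members; length enters both measures). Mrps17 has 6490 bases of exon union and 360 coding bases, and per kb of coding sequence it stood at 88.2 and 79.7, near the median of 92.0 over members. Mrpl33, at 104 and 120 on that scale, was above the median. Mrpl17, which lies close to the exit tunnel, went the other way, from rank 35 per kb of exon to rank 1 per kb of coding sequence, at 346 and 369. Of the 10 highest members by exon union, 5 were also among the 10 highest by coding length, Mrps24 among them at rank 2. Of the 10 lowest past the filter, 3 were shared. Mrpl41, Mrps18c and Mrps5 were the 3 lowest genes past the filter per kb of coding sequence, at 3.42 and 2.52, 19.8 and 19.9, and 28.5 and 29.4. Their low place thus held on either length.

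Grouped by place in the ribosome, the members of a site were not at a common level. Per kb of exon, the 3 genes of the stalk that recruits translation factors lay closest together. Mrpl10 stood at 47.1 and 37.6 CPM per kb, Mrpl12 at 31.6 and 30.4, and Mrpl11 at 26.1 and 30.5. Per kb of coding sequence the stalk ran from 78.7 (Mrpl12) to 159 (Mrpl11). On that scale the 3 genes near the peptidyl transferase centre ran from 59.5 (Mrpl27) to 121 (Mrpl2), so the stalk did not stand out. Per kb of exon, the 7 genes at the exit tunnel ran from 10.1 (Mrpl47) to 68.2 (Mrpl45) as means of both libraries. The 6 of the central protuberance ran from 4.53 (Mrpl48) to 55.2 (Mrpl38). Per kb of coding sequence these 6 ran from 43.4 (Mrpl46) to 147 (Mrpl52), so that much of their range rested on the length used, whereas the genes at the exit tunnel ran from 30.9 (Mrpl22) to 358 (Mrpl17). Near the peptidyl transferase centre, Mrpl27 averaged 26.8 and Mrpl16 15.1, both under Mrpl2. Of the 4 genes assigned to the head of the small subunit, Mrps7 averaged 31.8, and Mrps9, Mrps10 and Mrps14 lay between 12.8 and 16.8. Mrps24, which averaged 108, was assigned to the messenger RNA path and is not among these 4. At the tunnel and in the central protuberance, levels per kb of exon spanned ranges wider than the gap between libraries of any gene there.

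The median was 25.1 CPM per kb for 49 large subunit genes and 18.7 for 26 small subunit genes, a difference of 0.42 on the log2 scale. It was 0.52 in replicate 1 alone and 0.20 in replicate 2 alone. With the longest transcript as the length it fell to 0.16, and with coding length to 0.28. Members with a bacterial counterpart had a median of 24.5 and those specific to mitochondria of 20.9, a log2 difference of 0.23. That difference was 0.11 in replicate 1 alone and 0.17 in replicate 2 alone, and 0.37 per kb of coding sequence. Mrps30 and Mrps18a, which belong to the large subunit in spite of their names, averaged 10.1 and 11.6, and Mrps36 averaged 40.7.

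Set beside other classes of gene, the members were above most genes and below the other ribosome. The median member exceeded 81.9% of the 13117 protein-coding genes past the filter, whose median was 5.34 CPM per kb. The 79 cytosolic ribosomal protein genes past the filter, of 80 in the table, had a median of 330, which is 13.7 times that of the members. The 79 nuclear genes past the filter for respiratory chain and ATP synthase subunits, of 80, had a median of 72.8, or 3.03 times that of the members. In CPM, without regard to length, the medians were 57.3 for the members and 25.7 for protein-coding genes past the filter. On that scale the cytosolic ribosomal protein genes had a median of 571 and the respiratory chain genes of 119. The 5 genes for ribosomal proteins whose symbols fall outside the rule had a median of 37.9 CPM per kb, above the members' median of 24.0 and within the members' range. The highest of them were Chchd1, at 64.7 and 75.2, Aurkaip1, at 49.7 and 54.8, and Ptcd3, at 34.0 and 41.7. Of the messages that this ribosome translates, those for mt-Nd5 and mt-Nd6 had 17364 and 8656 counts in replicate 1 and 7284 and 5890 in replicate 2, whereas mt-Cytb was listed at 0.

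The genes that serve the ribosome without being part of it had lower medians. The 20 genes for assembly and ribosomal RNA modification had a median of 7.37 CPM per kb, and the members' median was 3.26 times as high. The 12 translation factor genes, of which 11 passed the filter, had a median of 6.74 and ranged widely. Oxa1l, which inserts the new chains into the inner membrane, led them with 37.0 and 36.5. Gfm1, Tsfm, Mpv17l2 and Eral1 also lay above the members' median per kb of exon. In CPM, without regard to length, the medians were 57.3 for the members, 28.7 for the assembly genes and 24.65 for the factors. Among all of these genes the lowest besides Tufm were the initiation factor gene Mtif3, at 1.24 and 1.31, and Gfm2, which helps to recycle the ribosome, at 2.59 and 2.92. The levels of all classes are plotted side by side.

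**Figure D2:**
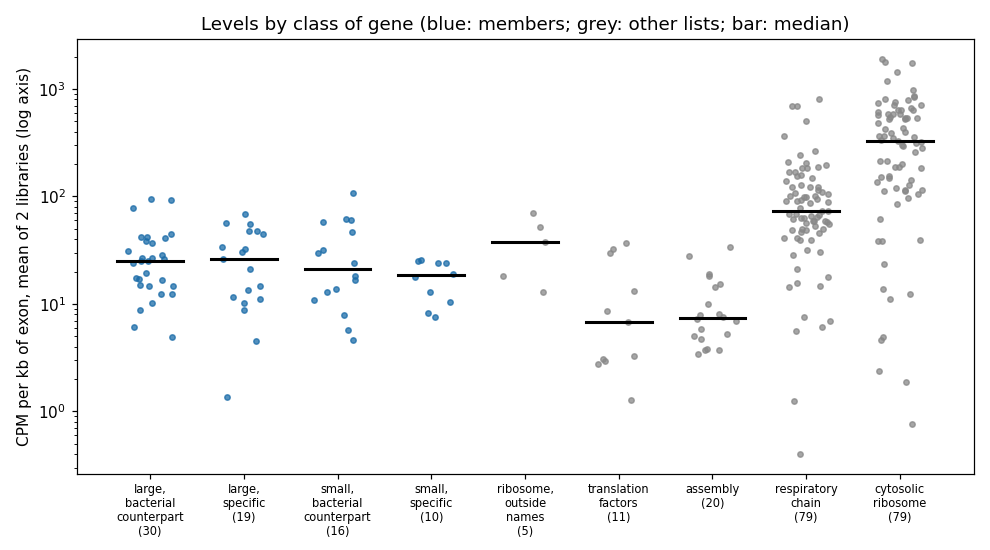
Mean CPM per kb of exon over both libraries (log axis), 1 point per gene past the filter, for the members by subunit and origin (blue) and for other classes (grey); numbers in brackets count genes and bars are medians. The small subunit genes specific to mitochondria end at 25.5, whereas the other 3 classes of members reach 68.2 or more; the median over members is 24.0, while the cytosolic ribosome has its median at 330 and the assembly genes at 7.37.

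Between the CAST libraries, the members differed less than genes in general. Ratios of replicate 1 to replicate 2 were formed after TMM scaling, with 0.5 CPM added to each value, for the 13824 genes whose counts in both libraries came to 10 or more. Only Mrps6 and Mrps16 were at least 1.5-fold apart, 2 of 76 members or 2.63%, against 24.3% of all genes. Mrps16 was at the threshold, and it fell under it, at 1.45-fold, with library totals in place of TMM. Of genes with at least 100 counts in each library, where counting error is smaller, 14.3% were that far apart, and 2 of 75 members. The SD of the log2 ratio was 0.19 over members and 0.60 over all genes. Ratios within 1.25-fold were found for 64 of the 76 members, or 84.2%, against 51.7% of all genes and 61.7% of genes with at least 100 counts in each library. No member was 1.5-fold higher in replicate 1, and neither was any of the 79 cytosolic ribosomal protein genes or of the 79 respiratory chain genes. Of all genes, 13.5% were 1.5-fold higher in replicate 1 and 10.9% in replicate 2.

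The counting interval of the ratio, an exact 95% interval given the summed count, left out 1 for 35 of 76 members, against 57.1% of all genes. Among genes with at least 100 counts in each library the shares were 46.7% of members and 67.1% of all genes. The interval was wholly on the side of replicate 2 for 33 members and of replicate 1 for 2 members, Mrpl10 and Mrps36. It covers counting error only, not the spread between cultures. The value was higher in replicate 2 for 49.6% of all genes and for 73.7% of the members. The median log2 ratio of the members was -0.12, and that of all genes was 0.00. With library totals in place of TMM these medians were -0.06 and 0.06, and 48 of 76 members had a higher value in replicate 2, against 44.5% of all genes. The shift was smaller than that of the cytosolic ribosomal protein genes, whose median was -0.48, and of the respiratory chain genes, at -0.26.

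**Figure D3:**
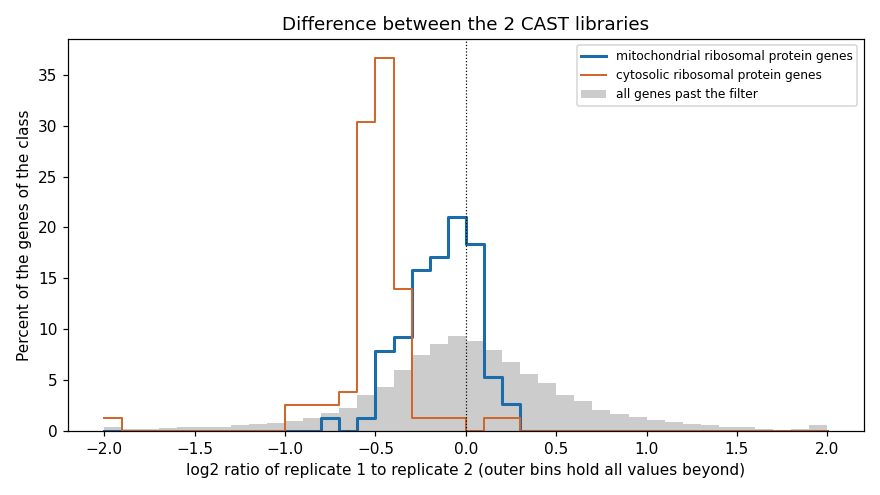
Distribution of the log2 ratio of replicate 1 to replicate 2 in bins of 0.1 (horizontal axis), as a percent of the genes of each class (vertical axis), for all 13824 genes past the filter (grey), the 76 members (blue) and the 79 cytosolic ribosomal protein genes past the filter (orange). The members form a narrow peak just under 0, with their median at -0.12, to the right of the cytosolic ribosomal protein genes with their median at -0.48.

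Of the 5 members farthest toward replicate 2, 3 belonged to the small subunit, which held 26 of the 77 members. Mrps6, a protein of the platform on chromosome 16 from 92058270 to 92112227 on the plus strand, had 21.6 CPM in replicate 1 and 34.5 in replicate 2. That is a 1.67-fold higher level in replicate 2 after scaling, with a counting interval of 1.44 to 1.93, and 1.65-fold with 0.5 CPM added. Of the exon bases of Mrps6, 19.9% are shared with Gm49711 on the same strand, and the part of this overlap in the ratio was not tested. Mrps16, a protein of the body on chromosome 14 from 20389304 to 20393634 on the minus strand, had 69.2 and 100.6 CPM, which is 1.51-fold (1.39 to 1.64), and 1.49-fold with TMM computed without cytosolic ribosomal and mitochondrial genome genes. Mrps31 followed with 53.8 and 71.9 CPM, Mrpl57 with 28.1 and 37.6, and Mrpl45 with 153 and 200.5. Their log2 ratios were -0.47, -0.47 and -0.44. All 5 intervals left out 1, as did those of 33 members on this side, and these 5 were chosen as the farthest, so this is no separate result.

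Toward replicate 1 the differences were smaller. Mrpl10 of the stalk had 80.4 CPM in replicate 1 against 64.2 in the other library, which is 1.20-fold (1.10 to 1.31) or 0.26 on the log2 scale. Its stalk partners did not go with it, with log2 ratios of -0.28 for Mrpl11 and 0.00 for Mrpl12. Mrps36 had 55.9 and 47.9 CPM, or 1.12-fold (1.01 to 1.24). Mrpl44, whose protein has a ribonuclease III fold, had 52.9 and 46.1 CPM, Mrpl50 had 47.0 and 41.4, and Mrpl16 had 50.6 and 45.1. For these 3 genes the interval held 1. Fibroblast markers were at a higher summed level in replicate 1, with 9 of 11 higher there after scaling. The pluripotency markers were too, with 7 of 9 higher there, although Pou5f1 had 547 CPM in replicate 1 and 731 in replicate 2. Their part in the ratios of the members was not tested.

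Genes of the same pathway outside the rule did not all lie on 1 side. All 5 ribosomal proteins with other symbols were higher in replicate 2, with a median log2 ratio of -0.23. Of the 11 translation factors past the filter, 5 were higher in replicate 2 and 6 in replicate 1, and of the 20 assembly genes 6 were higher in replicate 2 and 14 in replicate 1. Nsun4, which modifies the ribosomal RNA of the small subunit, had 30.1 CPM in replicate 1 and 15.8 in replicate 2 and was the farthest of these from equality.

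A position that many members shared was beside a gene read in the opposite direction. A protein-coding neighbour counted as divergent if the annotated starts of both genes faced away from each other and were at most 1000 bases apart, or overlapped by at most 500. Of the 77 members, 26 had such a neighbour, or 33.8%, against 10.5% of the 18370 protein-coding genes of the table and 13.3% of those past the filter. In 1 pair both genes were members, Mrps11 of the platform and Mrpl46 of the central protuberance. Mrpl36 was paired with Ndufs6, a subunit of respiratory complex I, and Mrps12 with Sars2, the mitochondrial seryl-tRNA synthetase. Mrpl32 was paired with Psma2 of the proteasome, and Mrpl51 with Ncapd2 of the condensin complex. Members with and without a divergent neighbour had medians of 25.8 (26 genes) and 21.6 (50 genes) CPM per kb.

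Levels differed widely within some of the pairs. In 20 pairs both genes had at least 50 counts in each library, and 19 of these held 1 member. In these 19, the ratio of the member's CPM per kb of exon to its neighbour's ran from 0.0962 for Mrpl32 to 24.2 for Mrpl37, and the member was the higher gene in 13 pairs in replicate 1 and in 14 in replicate 2. Mrps18b was the gene that changed place, at 23.3 against 38.3 for its neighbour in replicate 1 and 26.3 against 5.56 in replicate 2. In mean CPM without regard to length the member was higher in 10. In counts, Mrps18b had 703 and 755, whereas this neighbour, Ppp1r10, a regulatory subunit of protein phosphatase 1 whose annotated start lies 45 bases away, had 3115 in replicate 1 and 429 in replicate 2. The log2 ratio was -0.23 for Mrps18b and 2.71 for Ppp1r10, the only neighbour of the 20 that was at least 1.5-fold apart between libraries. Of genes with at least 100 counts in each library, 14.3% were that far apart. In 15 of the 20 pairs the log2 ratios of both genes had the same sign, given as a description, since all pairs share the 2 libraries. Some of these signs rest on ratios near equality, such as 0.01 for Mrps7 and -0.01 for Mrpl46. The share among divergent pairs without a member was not counted.

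**Figure D4:**
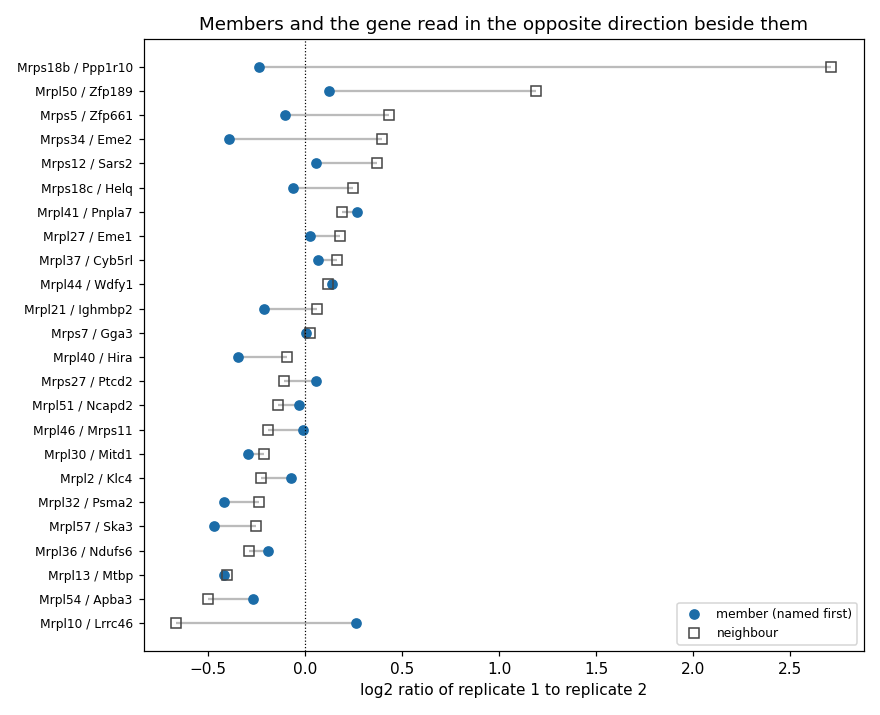
Log2 ratio of replicate 1 to replicate 2 (horizontal axis) for members (blue circles) and their divergent neighbours (open squares) in the 24 pairs whose neighbour had at least 10 counts in total, ordered by the neighbour's ratio. The Mrps18b and Ppp1r10 pair at the top lies farthest apart, at -0.23 and 2.71, and the Mrpl10 and Lrrc46 pair at the foot rests on 7 and 14 counts of Lrrc46.

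Shared exon bases were more frequent among members than among other genes, with a Spearman rho of -0.11 between the percent shared and CPM per kb over 76 members, as a description. On either strand, 33 of 77 members shared at least 1 exon base with another gene, or 42.9%, against 31.8% of the protein-coding genes of the table. In 7 members at least 25% of exon bases were shared. Besides Mrpl53 and Mrps18b these were Mrps34 with 77.8%, chiefly with Mapk8ip3, Mrps25 with 69.8%, with Nr2c2, Mrpl19 with 36.0%, with Gcfc2, Mrpl43 with 33.4%, with Twnk, and Mrpl24 with 26.3%, with Rrnad1. The 6 that passed the filter had a median of 19.7 CPM per kb, and the 44 that shared no base had one of 24.2. For 30 members neither exon bases nor any 75-base stretch was shared with another gene, and their median was 28.9. The counts of the overlapping members cannot be divided between the genes here.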

How the data were processed

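Polyadenylated RNA of CAST stem cells was sequenced in 2 libraries. The deposited table holds whole-number counts of reads per gene, not normalized, made by the authors. The submitters' notes list TopHat2 2.1.1, SAMtools and HTSeq with build GRCm38, and the study's methods describe STAR counts on a CAST genome with multi-mapping reads discarded. Which of these made the table, and whether strand was used, is not given in the sources used here. Of its per-sample columns, 7 were not used, since no sample listed for the series carries their names.

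Gene names, positions and lengths came from GENCODE M21 (GRCm38), where 26807 of 26808 identifiers matched. From the counts, CPM on library totals and CPM per kb of exon union were computed for the levels. Replicate ratios used edgeR 4.0.16 TMM scaling (R 4.3.3), 0.5 CPM added, genes with at least 10 counts in total, and a 95% Clopper-Pearson interval conditional on the summed count (scipy 1.17.1), tested on simulated data. Reads carry no molecular identifiers that were used here, so intervals cover counting error only. No count model was fitted, since both libraries are of 1 group. Library totals, DESeq2 1.42.0 size factors, other filters, pseudocounts, lengths and member sets were tried as alternatives.

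The members and gene lists were chosen with earlier results of these data known. Named were the 10 highest and 10 lowest members per kb, the 5 farthest to each side in the ratio with at least 50 counts in each library, the Mrps18 paralogs, members named against their subunit or of disputed membership, members at or under 3 counts, and the 3 highest and 3 lowest of the other mitochondrial translation genes. Other genes were named after their values or annotation had been seen. Promoter motifs were not analysed here.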

Additional observations from a re-analysis of the deposited data

How the results depend on the processing

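The summed share of 0.490% became 0.522% when cytosolic ribosomal protein genes and genes of the mitochondrial genome were left out of the total. The spread of levels over members, an SD of 1.12, was 1.10 with the longest transcript, 0.983 with coding length, 1.28 without the filter, 1.16 and 1.02 with pseudocounts of 0.1 and 2, and 1.12 to 1.14 in single libraries. Chosen after seeing the data, it was 1.15 without members that share at least 25% of exon bases and 1.05 without Mrpl41. The large minus small subunit difference of 0.42 was 0.16 with the longest transcript, 0.28 with coding length and 0.20 to 0.52 in single libraries. The counterpart minus specific difference of 0.23 was 0.33 with the longest transcript, 0.37 with coding length, 0.29 without the filter, and 0.11 to 0.17 in single libraries. The count of members at least 1.5-fold apart, 2, was 1 with library totals, with TMM computed without cytosolic ribosomal and mitochondrial genome genes, and with a pseudocount of 2, Mrps16 being lost each time. Members higher in replicate 2 numbered 48 to 56 and the median log2 ratio ran from -0.12 to -0.06 over all alternatives. The causes of these shifts were not tested. No paired analysis was possible because the libraries analysed belong to 1 group. With 2 libraries, the spread between replicates rests on a single difference.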
